A study of Mus musculus with 9 samples.

Results

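Genes of the actin cytoskeleton and the contractile apparatus were followed across doses of sodium alginate, the salt of a seaweed polysaccharide, in mouse adipose stromal cells differentiating into white adipocytes. The set was a list of 54 gene symbols, looked up in the deposited table of 41761 genes. Of these, 52 were found by symbol, and 50 passed a filter on low values, at least 1 FPKM (fragments per kilobase of gene, corrected for library depth) in at least 3 libraries. Synpo2 and Des were found but lay under that filter, and Actg1 and Tmsb10 were not matched by symbol. The 50 that passed are the tested members below, of 12635 tested genes in all.

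The cells were primary stromal cells from the inguinal white fat of wild type C57 mice, labelled as mature white adipocytes at harvest. At every dose, 0 µM included, differentiation was started 4 days after confluence with 1 µM rosiglitazone, 0.5 mM IBMX, 1 µM dexamethasone and 1 µg/ml insulin, and the medium was changed on day 2 to one with insulin and rosiglitazone. Sodium alginate was present at 0, 50 or 100 µM before and after that change, with 3 libraries per dose. The design text lists no rosiglitazone, which the treatment protocol names. RNA was collected on day 7 by the protocol and day 6 by the titles. Titles of the 100 µM libraries say 50 µM, and their treatment label and library name, which say 100 µM, were followed. Whether libraries of the same dose stem from different dishes or mice is not stated, so a p-value here measures only how these 9 libraries vary, and that variation may be technical.

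Actin monomers assemble into filaments, and myosin pulls on those filaments to give a cell tension. In fibroblast-like cells the filaments are bundled into stress fibres by alpha-actinin, tropomyosin and calponin, and tied to the matrix at focal adhesions. Adipocyte precursors are spread cells rich in stress fibres, and they round up and rebuild their actin into a layer under the membrane as they fill with lipid. Many genes of this set are classical targets of serum response factor (SRF) and its actin-sensing partner MRTF, which bind a sequence called the CArG box.

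The CArG box (CC, then 6 bases that are each A or T, then GG) was searched on both strands in RefSeq promoter windows of GRCm38.p6, from 250 bases before to 50 bases after a gene's start. A window was held for 48 of the 54 symbols, and none for Actg2, Tagln, Myh11, Actb, Pxn and Csrp2, which were not searched. The exact motif was found in 5 of the 48 (10.42%), Actg1, Cnn2, Myl6, Myl9 and Vcl, and in 1.81% of all 27025 genes. Acta2, whose promoter is a textbook example, has 2 copies with 1 central base that is not A or T. A search that allows 1 such base, chosen after the data were seen, found 11 of 48 (22.92%) and 11.29% of all genes. The TEAD core GGAATG, searched in the same way, was in 15 of 48 (31.25%) and 16.58% of all genes. A match is only a run of letters in this window, not a shown binding site. The 2 windows below are those of the smooth muscle actin Acta2 (chr19:34255324-34255623, minus strand) and the adhesion protein vinculin, Vcl (chr14:20929148-20929447, plus strand). They were picked after their values were seen, Acta2 as a member that fell at 100 µM and Vcl as a member that did not pass. Of the tested members with the exact motif, Cnn2 and Myl9 fell and Myl6 and Vcl did not pass. Whether a match goes with the change was not tested. Capitals mark the matches, exact in Vcl and with 1 central base that is not A or T in Acta2.
Acta2: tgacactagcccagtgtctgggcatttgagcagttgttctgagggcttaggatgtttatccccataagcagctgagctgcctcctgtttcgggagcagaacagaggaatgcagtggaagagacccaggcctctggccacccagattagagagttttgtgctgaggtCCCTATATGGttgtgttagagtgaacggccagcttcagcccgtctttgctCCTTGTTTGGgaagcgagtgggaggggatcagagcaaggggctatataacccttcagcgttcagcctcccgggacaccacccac
Vcl: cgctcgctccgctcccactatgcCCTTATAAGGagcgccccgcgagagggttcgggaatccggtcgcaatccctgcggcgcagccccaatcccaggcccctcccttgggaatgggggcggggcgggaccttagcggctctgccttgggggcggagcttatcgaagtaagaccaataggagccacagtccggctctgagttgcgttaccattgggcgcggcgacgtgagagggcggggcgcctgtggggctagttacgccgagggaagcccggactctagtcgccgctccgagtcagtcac

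The next 5 sequences are the CArG matches, in capitals with 10 bases on each side, of 3 members that fell at 100 µM (Cnn2, Myl9, Flnc) and of 2 that did not pass the test (Myl6, Gsn). Those of Flnc and Gsn have 1 central base that is not A or T.
Cnn2: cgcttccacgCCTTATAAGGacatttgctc
Myl9: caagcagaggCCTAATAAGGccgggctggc
Flnc: tgtccctcatCCCTAAATGGctaagactag
Myl6: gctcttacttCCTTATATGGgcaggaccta
Gsn: gactcagtttCCTTCTATGGaccgcagaga

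Of the 10 tested members with a match under the looser search, 5 fell at 100 µM (Acta2, Cnn2, Flnc, Myl9 and Tpm3). The other 5 were not called (Gsn, Myl12a, Myl6, Rdx and Vcl). Over all tested members 33 of 50 fell, and over all tested genes 15.6%. Those 50 include members with no window, of which Actg2, Tagln, Actb and Pxn fell and Myh11 and Csrp2 did not pass. The share of members with a match that fell can therefore not be set against 33 of 50. Myl12a was called lower in 8 of the 17 alternative analyses, so the count of 5 that fell is not firm.

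Whole reads rebuilt from the values numbered 14019672 to 17094467 per library. In a principal component analysis of all tested genes, the first component (35.9% of the variance) set the 100 µM libraries (18.2 to 21.4) apart from the other 6 (-15.0 to -4.30). On the second component (11.9%), 50 µM library 3 stood apart at -19.1, with the others between -4.62 and 11.4, so counts are also given without it. Adipoq and Plin1, defining adipocyte genes, were at 594 ± 26.7 and 209 ± 0.247 FPKM (SD, n = 3) at 0 µM, beside 52.1 ± 1.92 FPKM of the progenitor marker Pdgfra. In such bulk RNA, fewer cells of a type and less RNA per cell cannot be told apart.

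At 100 µM against 0 µM, most of the set fell. Of 50 tested members 33 (66.0%) fell and 2 rose, Mcam and Cspg4, by limma's moderated test on log2(FPKM + 1) with Benjamini-Hochberg adjusted p below 0.05. Of all 12635 tested genes 15.6% fell and 18.3% rose. The median log2 fold change was -0.33 over the members and 0.01 over all genes. Every 100 µM library lay below every 0 µM library in 37 of 50 members, against 22.9% of all tested genes, and above in 3, against 25% of all. The 52 members found took 1.81% ± 0.0245 of the summed FPKM at 0 µM, 1.75% ± 0.0221 at 50 µM and 1.53% ± 0.0279 at 100 µM (SD, n = 3). Without 50 µM library 3, 35 fell and 2 rose. Over all tested genes the split was 2314 higher and 1965 lower, and it became 1630 higher and 2633 lower on the TPM scale, where 37 members fell and 1 rose. With the authors' scaling factor removed it was 1731 higher and 2658 lower, with 36 members lower and 1 higher.

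**Figure D1:**
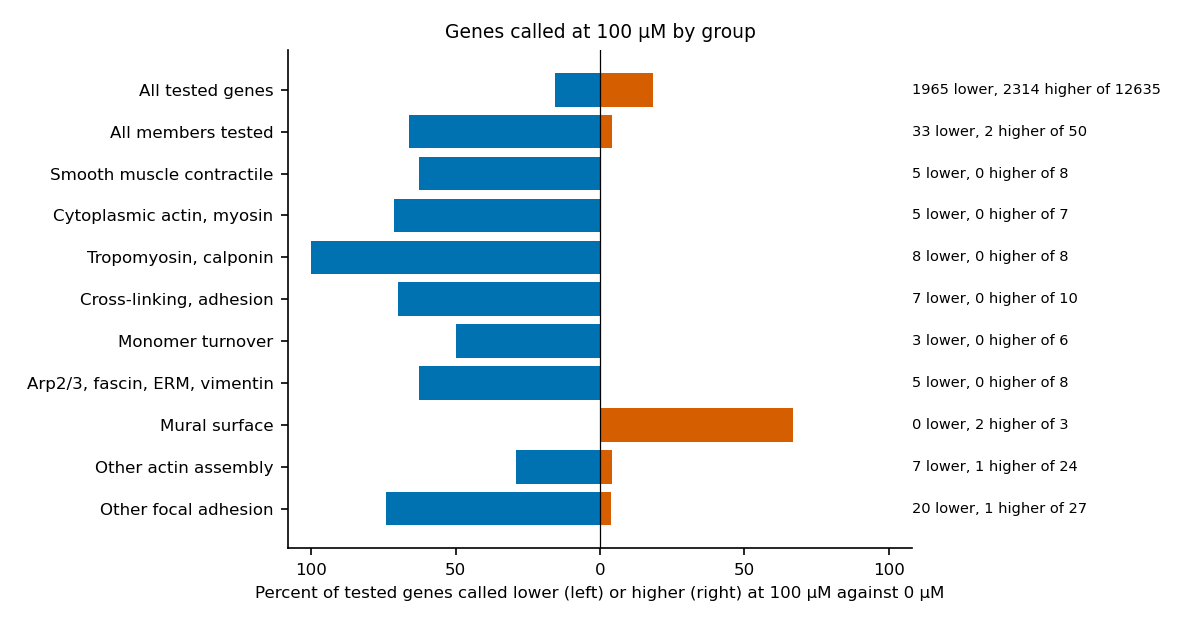
Percent of tested genes called lower (left) or higher (right) at 100 µM against 0 µM, for all tested genes, the members, their 7 role groups and 2 further lists. Tropomyosin and calponin genes reached 100% lower and other focal adhesion genes 74.1%, beside 15.6% of all tested genes.

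Among the smooth muscle contractile genes, 5 of 8 tested fell. Acta2, the smooth muscle alpha-actin (chromosome 19, 33921975 to 33936222 on the table's strain assembly), read 165, 195 and 170 FPKM at 0 µM, 171, 172 and 201 at 50 µM, and 115, 120 and 106 at 100 µM. All 100 µM values lay below all others, while the 0 and 50 µM values overlapped. Its log2 fold change at 100 µM was -0.63 (SE 0.0840, adjusted p = 0.000462), which is 35.8% lower on the FPKM scale. Actg2, the enteric smooth muscle gamma-actin, was far scarcer and fell from 7.09, 7.89 and 6.74 FPKM at 0 µM to 4.04, 4.96 and 4.25 at 100 µM, with 7.74, 7.08 and 7.28 at 50 µM. Tagln (transgelin, an actin-binding protein) went from 105, 117 and 102 to 74.3, 77.1 and 71.2 FPKM, with 100, 104 and 121 at 50 µM. For Actg2 and Tagln too, the 100 µM values were the lowest and the others overlapped. Actins are near-identical in sequence, so reads may be shared between them and each actin value is uncertain to that extent.

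Lmod1 (leiomodin-1, which seeds actin filaments in smooth muscle) was the contractile gene with an ordered series, 7.97, 7.76 and 7.75 FPKM at 0 µM, 7.07, 7.19 and 6.63 at 50 µM, and 4.92, 5.80 and 6.39 at 100 µM. No dose overlapped another, and the drop at 100 µM passed (log2 -0.40, SE 0.0769, adjusted p = 0.00346) while that at 50 µM did not (adjusted p = 0.420). Smtn (smoothelin) also fell, by 19.9%, and its call was lost without 0 µM library 3 or 100 µM library 2. The other 3 tested contractile genes did not pass. Myh11, the smooth muscle myosin heavy chain, was at 3.10 ± 0.277, 2.91 ± 0.240 and 3.03 ± 0.0456 FPKM at 0, 50 and 100 µM (adjusted p = 0.862 at 100 µM). Mylk, the kinase that activates myosin, was at 11.1 ± 0.583 and 10.2 ± 0.280 FPKM at 0 and 100 µM (adjusted p = 0.196). Calponin-1 (Cnn1) was at 3.02 ± 0.170 and 2.20 ± 0.248 FPKM and missed the threshold (adjusted p = 0.0607). Cnn1 was called lower in 5 of the 17 alternatives, on the TPM scale, with the authors' factor removed, with only the 2 doses fitted, and without 50 µM library 2 or 3. Synpo2 and Des, under the filter, were at 0.937 ± 0.181 and 0.744 ± 0.209 FPKM at 0 µM and at 0.660 ± 0.0300 and 0.838 ± 0.0653 at 100 µM.

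**Figure D2:**
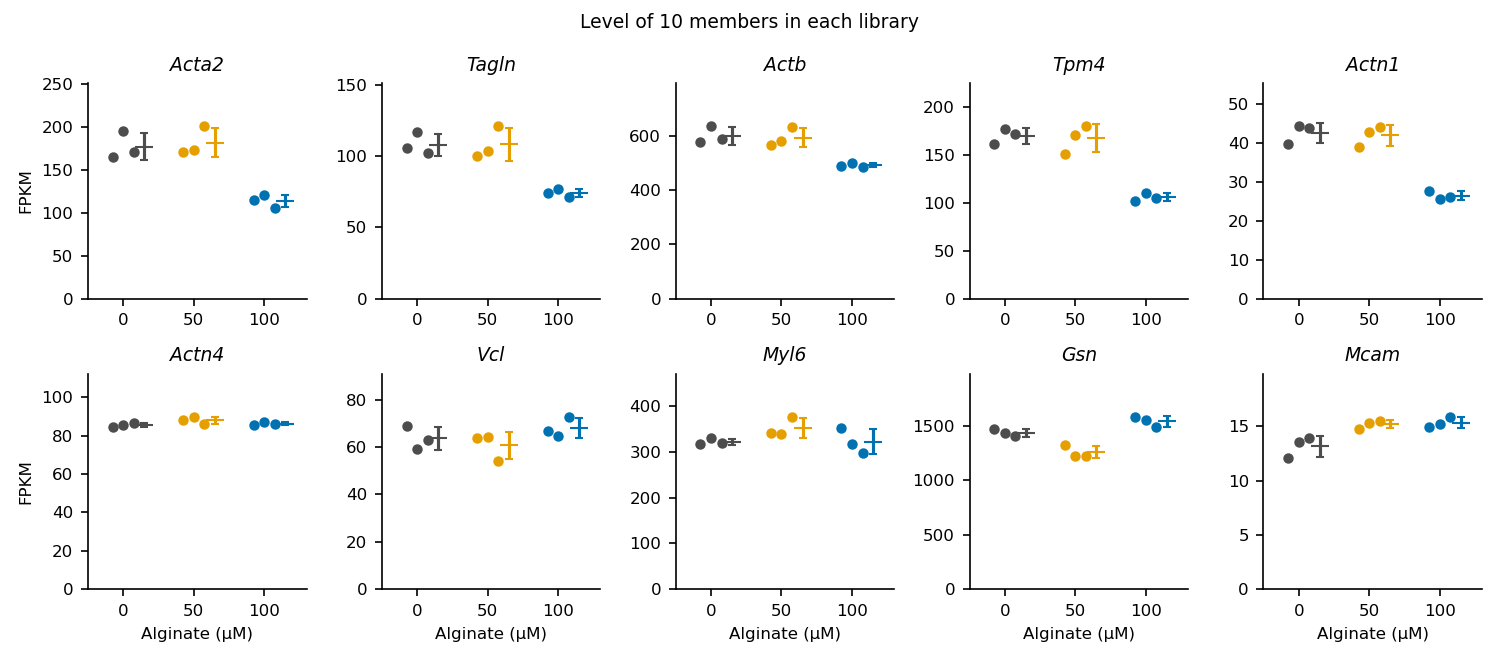
FPKM of 10 members in each library (points) against alginate dose in µM, with the mean and SD of the 3 libraries beside them, on axes that start at 0. Acta2, Tagln, Actb, Tpm4 and Actn1 are lowest at 100 µM with no overlap, Actn4, Vcl and Myl6 overlap between 0 and 100 µM, and Gsn is lowest at 50 µM.

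Of the cytoplasmic actin and myosin genes, 5 of 7 tested fell. Actb, the cytoplasmic beta-actin, was among the most abundant members at 577, 637 and 588 FPKM at 0 µM, 566, 581 and 633 at 50 µM, and 488.5, 501.8 and 487.3 at 100 µM. It fell by 18.0% (log2 -0.28, SE 0.0567, adjusted p = 0.00428), with 100 µM below all other libraries. Myh9, the heavy chain of nonmuscle myosin IIA, read 69.5, 66.3 and 65.9 FPKM at 0 µM, 61.0, 67.1 and 58.5 at 50 µM, and 48.2, 44.8 and 51.2 at 100 µM (log2 -0.48, SE 0.0632, adjusted p = 0.000459). Here too the 100 µM libraries were lowest and the other doses overlapped. Myl9, the regulatory light chain of smooth and nonmuscle myosin, went from 40.1, 41.8 and 40.5 to 31.9, 29.6 and 24.9 FPKM, with 38.6, 40.5 and 45.0 at 50 µM (adjusted p = 0.00221), and its 0 and 50 µM values overlapped above those at 100 µM. Myh10, the heavy chain of nonmuscle myosin IIB, fell by 20.4% (5.90 ± 0.558 to 4.70 ± 0.348 FPKM), and its call was lost without 0 µM library 1 or 100 µM library 2.

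Among the light chains, Myl6, the essential light chain, was at 322 ± 7.07 FPKM at 0 µM and 322 ± 27.4 at 100 µM (adjusted p = 0.981). The near-identical regulatory chains Myl12b (48.7 ± 0.791 to 38.8 ± 5.81 FPKM, adjusted p = 0.0451) and Myl12a (90.0 ± 6.49 to 78.5 ± 1.17 FPKM, adjusted p = 0.0563) stood just on either side of the threshold, and the difference between them was not tested. Myl12b kept its call in 9 of the 17 alternatives, losing it without 0 µM library 1, 2 or 3, 50 µM library 2, or 100 µM library 2 or 3, without the filter on low values and with the replicate number as a block. Myl12a was called lower in 8, on the TPM scale, with quantile normalization, with the factor removed, with limma voom, with only the 2 doses fitted, and without 0 µM library 3 or 50 µM library 2 or 3. Reads can be shared between the pair.

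All 8 genes of the tropomyosin, calponin and caldesmon group fell, and each call held in all 17 alternative analyses. Tropomyosins lie along the filament and govern which myosins and severing proteins reach it. Tpm4 read 161, 177 and 171 FPKM at 0 µM, 151, 171 and 180 at 50 µM, and 102, 110 and 105 at 100 µM, with no overlap of 100 µM with either dose. Its log2 fold change of -0.68 (SE 0.0681, adjusted p = 0.000103) was the lowest of the tested members. Tpm1 read 52.1, 53.4 and 50.7 at 0 µM, 48.1, 48.1 and 49.8 at 50 µM, and 37.7, 40.5 and 37.9 at 100 µM (log2 -0.42, SE 0.0421, adjusted p = 0.000102). All 3 of its 50 µM libraries lay between the other doses.

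Cald1 (caldesmon, which restrains actomyosin) read 51.1, 49.1 and 53.2 FPKM at 0 µM, 46.8, 52.3 and 51.6 at 50 µM, and 34.1, 35.0 and 35.6 at 100 µM (log2 -0.54, SE 0.0516, adjusted p = 8.28e-05). Its 0 and 50 µM values overlapped and its 100 µM values stood below both. Cnn3, the calponin of nonmuscle cells, read 40.0, 42.3 and 40.3, then 35.3, 34.6 and 39.6, then 29.6, 29.9 and 27.6 FPKM with rising dose. No dose overlapped another for Cnn3. Its drop at 100 µM passed (log2 -0.48, SE 0.0577, adjusted p = 0.000279) and that at 50 µM did not (log2 -0.16, unadjusted p = 0.0217, adjusted p = 0.239). The other 4, Tpm2, Tpm3, Cnn2 and Tagln2, fell by 21.4% (Tpm3) to 37.6% (Tpm2). Summed over the group, the libraries had 466 to 501.1 FPKM at 0 µM, 443 to 516 FPKM at 50 µM and 322 to 336 FPKM at 100 µM.

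Of the cross-linking and adhesion genes, 7 of 10 fell. Actn1, an alpha-actinin that ties filaments into bundles, read 39.7, 44.3 and 43.9 FPKM at 0 µM, 39.0, 42.8 and 44.2 at 50 µM, and 27.7, 25.6 and 26.1 at 100 µM. The drop, with 100 µM below all other libraries, was 37.9% (log2 -0.67, SE 0.0616, adjusted p = 6.55e-05). Its close relative Actn4 was at 85.6 ± 1.07, 88.1 ± 1.87 and 86.3 ± 0.727 FPKM, with a difference at 100 µM of 0.01 (SE 0.0343, adjusted p = 0.836). Flnc (filamin C, a cross-linker typical of muscle) read 11.2, 11.0 and 10.8 FPKM at 0 µM, 9.69, 10.6 and 9.55 at 50 µM, and 7.07, 6.34 and 7.90 at 100 µM (adjusted p = 0.00033). No dose overlapped another.

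Zyx (zyxin, recruited to stress fibres under tension) went from 35.3, 40.3 and 35.8 to 24.5, 24.1 and 25.9 FPKM at 100 µM, with 33.9, 34.6 and 39.9 at 50 µM (adjusted p = 0.000408). Csrp1, a LIM protein of smooth muscle that binds alpha-actinin, went from 93.2, 102 and 95.0 to 76.5, 72.2 and 73.6 FPKM, with 93.0, 95.0 and 101 at 50 µM (adjusted p = 0.000442). In both, 100 µM stood below the other doses, which overlapped. Pxn (paxillin, a focal adhesion scaffold) read 10.5, 11.1 and 11.0, then 9.63, 9.50 and 10.2, then 8.33, 7.95 and 8.94 FPKM with rising dose, with no overlap between doses (adjusted p = 0.00126 at 100 µM). Talin-1 (Tln1) and filamin A (Flna), which link integrins to actin, fell by 20.2% and 20.4%. Vinculin, which talin recruits, did not pass at 63.7 ± 4.85, 60.6 ± 5.81 and 67.9 ± 4.34 FPKM (adjusted p = 0.435), and neither did Csrp2 (adjusted p = 0.528).

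Among genes of monomer supply, capping and severing, 3 of 6 tested fell. Capg, a capping protein of the gelsolin family, read 20.2, 22.3 and 21.6 FPKM at 0 µM, 19.2, 20.1 and 22.1 at 50 µM, and 15.3, 13.4 and 13.3 at 100 µM (log2 -0.58, SE 0.0695, adjusted p = 0.000281). Tmsb4x, the main monomer-sequestering thymosin, read 238, 262 and 249, then 239, 242 and 310, then 211, 194 and 146 FPKM with rising dose (adjusted p = 0.0313). Cap1, which recycles monomers, read 60.4, 65.0 and 65.3, then 61.8, 62.5 and 64.9, then 54.6, 57.7 and 58.0 FPKM (adjusted p = 0.0231). For all 3 genes the 100 µM libraries were lowest, but Tmsb4x lost its call without 0 µM library 1, 2 or 3, without 100 µM library 3, without the filter on low values and with the replicate number as a block. Cap1 lost its call without 0 µM library 2 or 3 or 100 µM library 1. Cofilin (Cfl1, 459 ± 12.7 and 435 ± 20.9 FPKM at 0 and 100 µM) and profilin (Pfn1, 138 ± 12.7 and 138 ± 6.91 FPKM), which sever filaments and feed monomers to them, did not pass, though Cfl1 was called lower on the TPM scale and with quantile normalization.

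Gsn (gelsolin, a severing and capping protein; chromosome 2, 34862975 to 34916691) was the most abundant member and had a different pattern. It read 1472, 1433 and 1405 FPKM at 0 µM, 1325, 1229 and 1224 at 50 µM, and 1586, 1553 and 1488 at 100 µM. The 50 µM libraries were the lowest and the 100 µM libraries the highest, with no overlap between doses. The difference between 100 and 0 µM did not pass (log2 0.10, SE 0.0518, adjusted p = 0.164) except with quantile normalization, and nor did that between 50 and 0 µM (log2 -0.19, SE 0.0518, unadjusted p = 0.00495, adjusted p = 0.123). Gsn rose from 50 to 100 µM (log2 0.29, SE 0.0518, adjusted p = 0.00358), a call that was lost without the filter on low values. Gelsolin is also secreted into plasma, and the table does not separate its forms.

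Of the Arp2/3, fascin, ezrin, moesin and vimentin genes, 5 of 8 fell. Msn (moesin, which links actin to the membrane) read 59.9, 61.8 and 64.6 FPKM at 0 µM, 59.0, 62.9 and 62.0 at 50 µM, and 49.8, 48.3 and 48.8 at 100 µM (log2 -0.34, SE 0.0424, adjusted p = 0.000357). Fscn1 (fascin, the bundler of filopodia) went from 70.8, 76.8 and 69.8 to 58.0, 55.4 and 53.7 FPKM, with 68.0, 73.1 and 73.6 at 50 µM (adjusted p = 0.000647). In both, 100 µM lay below the other doses, which overlapped. Ezr (ezrin, a moesin relative typical of epithelia) was scarce, at 4.59, 4.61 and 4.11, then 3.38, 3.50 and 4.18, then 2.95, 2.82 and 2.27 FPKM with rising dose. It fell by 39.5% at 100 µM (adjusted p = 0.00167), the largest percent drop of the tested members, and its 0 and 50 µM values overlapped. The third relative, Rdx (radixin), was at 42.2 ± 2.93 and 40.3 ± 1.20 FPKM at 0 and 100 µM (adjusted p = 0.431).

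Vim (vimentin, the intermediate filament protein of mesenchymal cells) read 302, 313 and 304 FPKM at 0 µM, 302, 298 and 337 at 50 µM, and 269, 251 and 230 at 100 µM. The 100 µM libraries were lowest (log2 -0.30, SE 0.0668, adjusted p = 0.00802). Of the Arp2/3 complex, which nucleates branched actin, Arpc1b fell by 18.8% (adjusted p = 0.00932), while Arpc2 and Arpc5 did not pass (adjusted p = 0.107 and 0.975). Arpc2 was called lower under the 3 other scalings (TPM, quantile normalization and the factor removed).

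Of the 3 mural surface genes 2 rose and none fell. Cspg4 (NG2, a proteoglycan of pericytes) read 1.33, 1.27 and 1.04 FPKM at 0 µM, 1.48, 1.21 and 1.38 at 50 µM, and 1.74, 1.92 and 1.92 at 100 µM, where it was above all other libraries (log2 0.37, SE 0.0938, adjusted p = 0.0136). Mcam (CD146, an adhesion molecule of mural and endothelial cells) read 12.1, 13.5 and 13.9, then 14.8, 15.3 and 15.5, then 14.9, 15.2 and 15.9 FPKM with rising dose. The 0 µM libraries were lowest and the alginate doses overlapped each other (100 against 0 µM log2 0.21, SE 0.0558, adjusted p = 0.0194). Cspg4 lost its call without 0 µM library 3. Mcam lost it without 0 µM library 1 or 100 µM library 3, and under 3 other scalings of the libraries. Rgs5, a pericyte marker that damps G protein signals, read 1.09, 1.17 and 0.799, then 1.11, 0.890 and 0.854, then 1.04, 0.842 and 1.03 FPKM, overlapping at every dose (adjusted p = 0.859), on 52 to 85 reads per library.

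**Figure D3:**
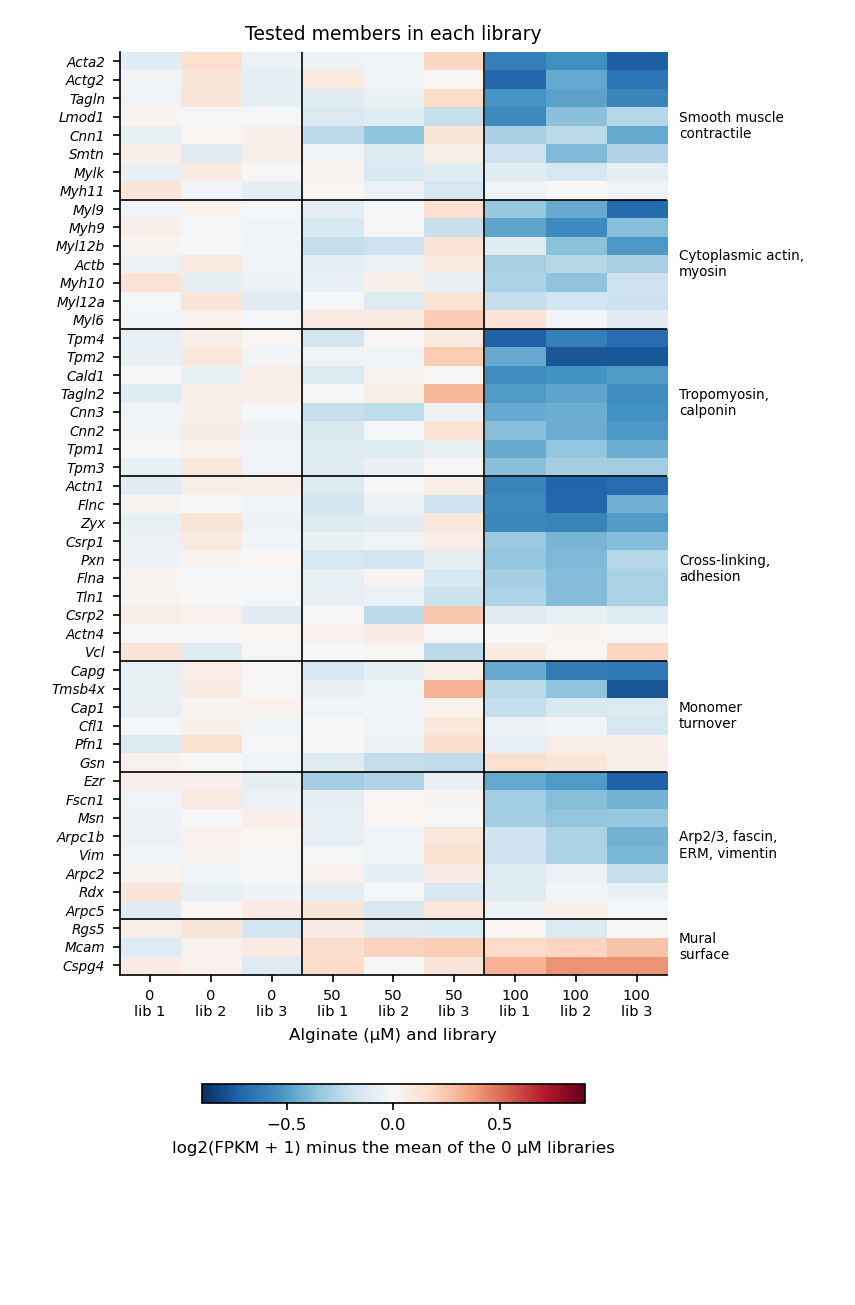
log2(FPKM + 1) of each tested member in each library, minus the mean of the 3 libraries at 0 µM, with members in rows by role and libraries in columns by dose in µM (blue lower, red higher). The 100 µM columns are blue for most members, with Myh11, Myl6, Actn4, Vcl, Pfn1, Arpc5 and the mural surface genes among those pale or red.

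At 50 µM no member was called against 0 µM in either direction by limma, with 5 of 50 at an unadjusted p below 0.05 (Gsn, Mcam, Cnn3, Pxn and Ezr), against 14.4% of all tested genes. Limma voom on the rebuilt reads called 1, Gsn, lower. Of all tested genes 0.435% fell and 0.356% rose at 50 µM, which is 55 and 45 genes. That background was itself not firm. It was 0 and 0 with only the 2 doses fitted, with the replicate block, and when library 1 or 2 of 0 µM, or library 2 of 50 µM, was left out. It was 0 lower and 1 higher without 0 µM library 3, 33 and 9 without 50 µM library 1, 5 and 8 without 50 µM library 3, 26 and 27 without 100 µM library 2, and 6 and 6 with no filter, while voom gave 179 lower and 169 higher. The median log2 fold change was -0.02 over the members. Every 50 µM library lay below every 0 µM library in 7 of 50 members (Lmod1, Tpm1, Cnn3, Flnc, Tln1, Pxn and Gsn), against 8.58% of all tested genes, and above in 2 (Myl6 and Mcam), against 12.1%. For Acta2 the 95% interval of the log2 difference at 50 µM was -0.16 to 0.22, and for Tpm4 it was -0.18 to 0.13. In simulated data of the same design, 73.8% of genes changed 1.5-fold at 50 µM were recovered, over all genes and not for the members alone. The simulation gave every gene the same spread beyond counting noise, a set value that was not estimated from these libraries. It therefore does not tell how often a given member, or a smaller change, would be found.

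Against 50 µM, the 100 µM libraries had 32 of 50 members lower and 1 higher, Gsn, where 12% of all tested genes were lower and 13.2% higher. The 2 comparisons share the 100 µM libraries. Without 50 µM library 3, 25 were lower and 1 higher. Calls over all tested genes dropped as well, from 1510 to 1077 lower and from 1663 to 1326 higher. The 50 µM mean was also set against the midpoint between 0 and 100 µM on the log2 scale, to ask whether the series was straight in dose. The test called it above the midpoint for 4 members, Tpm4 (0.31, SE 0.0589, adjusted p = 0.0430), Actn1 (0.31), Cald1 (0.24) and Tagln2 (0.37), and below it for Gsn (-0.24, SE 0.0449, adjusted p = 0.0421). Of all tested genes 0.989% were called above and 0.499% below, 1.49% in all. These calls were not stable. The count above the midpoint was 13 on the TPM scale, 7 with quantile normalization, 8 with the factor removed and 16 with voom, where over all genes it was 261, 153, 262 and 443, against 125. Leaving out any 1 library ended the call of Gsn, and no member above the midpoint was called without 0 µM library 1, 2 or 3, without 50 µM library 2 or 3, or without 100 µM library 2 or 3. Without 100 µM library 1, 2 were called. None was called with the replicate block or without the filter.

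**Figure D4:**
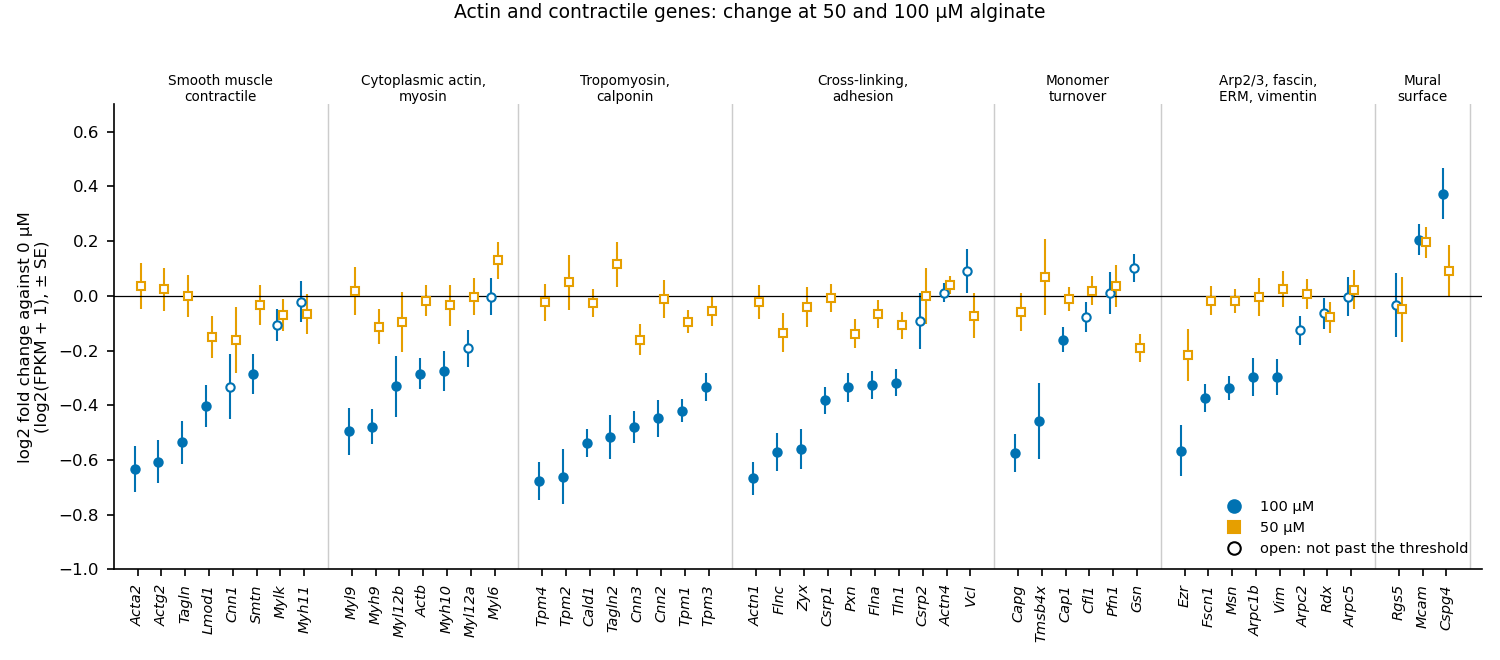
log2 fold change against 0 µM on the log2(FPKM + 1) scale, with its SE, of each tested member at 100 µM (blue circles) and 50 µM (orange squares), grouped by role, where filled symbols passed the threshold. The 100 µM points run from -0.68 (Tpm4) to 0.37 (Cspg4), and the 50 µM points are all open.

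Ratios of related genes within a library do not depend on how libraries were scaled. For 15 pairs with both genes tested, the ratio was compared over the 3 doses by an exact permutation test of all 1680 assignments of libraries to doses, whose smallest possible p is 0.00357. No pair passed after Benjamini-Hochberg adjustment over the 15, and 8 shared an adjusted p of 0.0536. If only 1 pair reached the smallest possible p, its adjusted p would also be 0.0536, so no pair could pass alone. The absence of a pass therefore does not show that the ratios were unchanged. The ratio of Actn1 to Actn4 was 0.498 ± 0.0260, 0.477 ± 0.0349 and 0.307 ± 0.0152 at 0, 50 and 100 µM (exact permutation p = 0.0214), with all 3 libraries at 100 µM below the others. Smooth muscle actin over beta-actin (Acta2/Actb) was 0.294 ± 0.0109, 0.305 ± 0.0106 and 0.230 ± 0.0115 (exact permutation p = 0.0107). Filamin C over filamin A was 0.113 ± 0.000938, 0.107 ± 0.00199 and 0.0914 ± 0.00675, in order of dose with no overlap (exact permutation p = 0.00357).

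In other pairs the ratio was highest at 100 µM, again short of the adjusted threshold. Smooth muscle over nonmuscle myosin heavy chain (Myh11/Myh9) was 0.0460 ± 0.00282, 0.0469 ± 0.00392 and 0.0633 ± 0.00511 (exact permutation p = 0.0250), and radixin over moesin was 0.682 ± 0.0694, 0.652 ± 0.0329 and 0.824 ± 0.0372 (exact permutation p = 0.0286). Transgelin over transgelin-2 and calponin-1 over calponin-3 overlapped between 0 and 100 µM (exact permutation p = 0.200 and 0.771). With 1 FPKM added to each value before the ratio, 9 pairs passed, and without 100 µM library 1, 2 did.

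**Figure D5:**
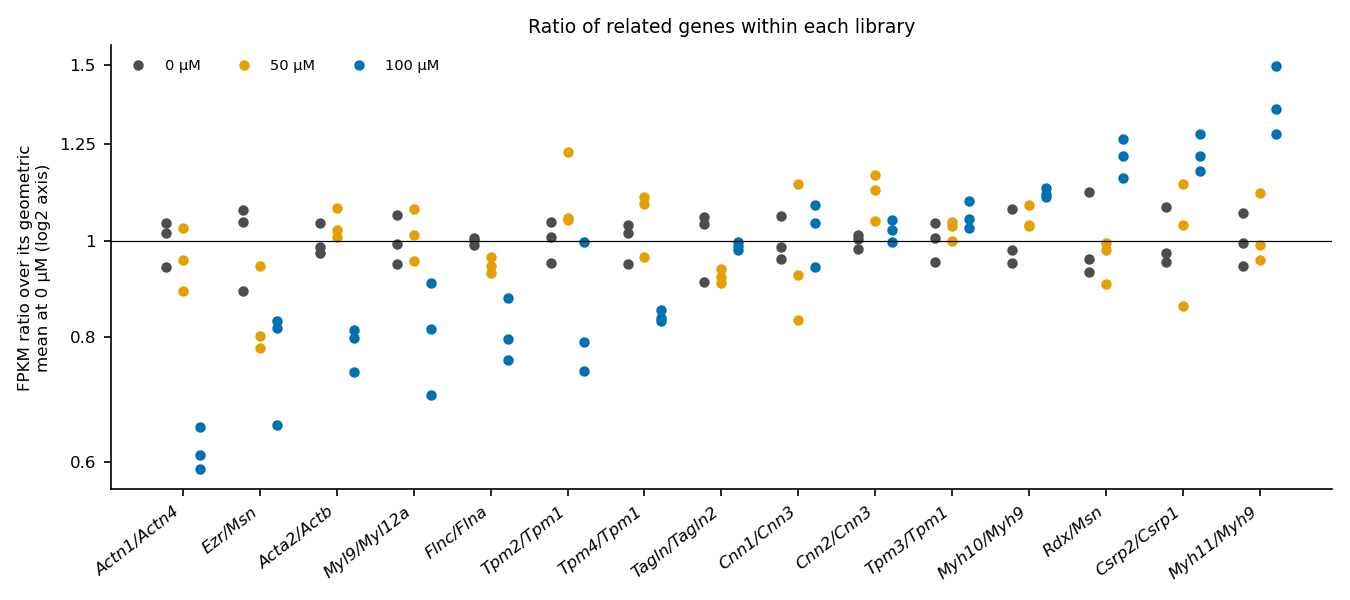
Ratio of FPKM of the named gene pair in each library, divided by its geometric mean at 0 µM, on a log2 axis with 0, 50 and 100 µM as separate colours. At 100 µM the Actn1/Actn4 points have the lowest mean and the Myh11/Myh9 points the highest, with the other pairs between.

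Genes around the set were taken from 2 further lists of the same pathway, 59 genes of which 51 were tested. At 100 µM 27 of the 51 fell and 2 rose, where 15.6% of all tested genes fell and 18.3% rose. Of other actin assembly genes, 7 of 24 fell and 1 rose. Cttn (cortactin, which stabilises branched actin) fell from 52.0 ± 0.598 to 43.4 ± 0.933 FPKM and Wasf2, an activator of Arp2/3, from 25.0 ± 0.579 to 21.2 ± 0.252 FPKM. Enah, which extends filaments, and Dstn, which severs them, fell from 3.80 ± 0.248 to 3.03 ± 0.131 and from 157 ± 5.51 to 139 ± 5.91 FPKM. Dstn lost its call without 0 µM library 2 or 100 µM library 1. Cfl2, the muscle cofilin, was the gene that rose, and its call was lost without 0 µM library 1 or 2 or 100 µM library 1 or 2. The call of Cfl2 was also lost under the 3 other scalings, with only the 2 doses fitted and with the replicate block. Without 0 µM library 2 or 3, 4 of the list were lower, where 1522 and 1496 of all tested genes were, against 1965 with all libraries. On the TPM scale or with the factor removed 11 of the list were lower, where 2633 and 2658 of all tested genes were.

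Of other genes of focal adhesions and stress fibres, 20 of 27 fell and 1 rose, Fhl1, against 15.6% and 18.3% of all tested genes. Tns3 (tensin-3, an integrin-actin linker) fell from 5.98 ± 0.243 to 3.63 ± 0.224 FPKM (log2 -0.59, SE 0.0546, adjusted p = 6.55e-05), Synpo (synaptopodin) from 9.69 ± 0.535 to 6.23 ± 0.243 and Lasp1 from 44.7 ± 1.71 to 33.5 ± 0.483. Fhl1, a LIM protein of muscle, rose from 80.7 ± 2.06 to 114 ± 6.16 FPKM (log2 0.49, SE 0.0481, adjusted p = 8.92e-05). No gene of the 2 lists was called at 50 µM by limma, with 4 of 51 at an unadjusted p below 0.05, against 14.4% of all tested genes. Limma voom called 1 higher and 1 lower there, both in the adhesion list.

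Markers of several cell types moved at 100 µM together with the set, and their part in its change was not tested. The counts below stand beside 18.3% of all tested genes that rose and 15.6% that fell at 100 µM. All 16 tested adipocyte markers rose, Lipe for instance from 126 ± 4.13 to 209 ± 8.96 FPKM, and the 17 listed genes summed to 7871 to 8042 FPKM at 0 µM, 8558 to 9006 FPKM at 50 µM and 11445 to 12166 FPKM at 100 µM. Of progenitor markers 7 of 10 fell, and their sum went from 807 to 897 FPKM at 0 µM, through 755 to 862 at 50 µM, to 472 to 549 at 100 µM. At 50 µM 4 adipocyte markers rose and 1 progenitor marker, Pdgfra, fell, where 0.356% of all tested genes rose and 0.435% fell. No call of either list was left with only the 2 doses fitted, with the replicate block, or without 0 µM library 1, 2 or 3 or 50 µM library 2 or 3. No adipocyte marker was called without 50 µM library 1 or without the filter, 2 were with quantile normalization and 8 with voom, which called 2 progenitor markers lower. Of endothelial markers 9 of 10 fell (sum 164 to 180 at 0 µM, 161 to 172 at 50 µM, 141 to 144 at 100 µM), and of macrophage markers 8 of 9 (236 to 265, 256 to 261 and 188 to 194 FPKM).

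Smooth muscle markers, 8 of whose 12 genes are members, fell in 5 of 7 tested. Here too the counts at 100 µM stand beside 15.6% of all tested genes lower and 18.3% higher. Their sum was 303 to 344 FPKM at 0 µM, 302 to 353 FPKM at 50 µM and 202 to 221 FPKM at 100 µM, and Myocd, the smooth muscle co-activator of SRF, was at 0.0910 FPKM at 0 µM. Of 7 tested pericyte markers 2 rose (the members Mcam and Cspg4) and 1 fell, with a sum of 78.1 to 81.2 FPKM at 0 µM, 77.1 to 81.6 FPKM at 50 µM and 66.8 to 69.8 FPKM at 100 µM. The 1 that fell was Pdgfrb, a growth factor receptor also listed as a progenitor marker (49.4 ± 1.04 to 35.8 ± 0.901 FPKM). The other 9 genes summed to 29.8 to 31.3 FPKM at 0 µM, 31.3 to 32.8 FPKM at 50 µM and 32.0 to 33.8 FPKM at 100 µM. That sum leaves out the marker called lower, so its direction was partly set by the choice. Within it, Mcam alone went from 13.2 ± 0.967 FPKM at 0 µM to 15.3 ± 0.496 FPKM at 100 µM. Notch3 was at 8.60 ± 0.201 and 9.04 ± 0.159 FPKM at 0 and 100 µM, and Kcnj8 at 1.03 ± 0.164 and 0.713 ± 0.254. Skeletal and cardiac muscle markers summed to 4.30 to 5.95, 4.50 to 5.78 and 3.25 to 4.36 FPKM, with Ckm at 0 in the 3 libraries at 0 µM, and neither tested gene was called. Mesothelial markers, 2 of 2 tested lower, summed to 6.83 to 9.33, 8.65 to 11.2 and 4.37 to 4.99 FPKM, with Msln at 0.117 FPKM at 0 µM. Of the other defining markers, Adgre1 (macrophages) was at 12.3 ± 0.934 and 10.4 ± 0.695 FPKM at 0 and 100 µM, the pan-leukocyte Ptprc at 0.400 ± 0.0511 and 0.278 ± 0.0934, and the skeletal muscle actin Acta1 at 3.03 ± 0.722 and 2.30 ± 0.218. Adgre1 was called lower at 100 µM, but not without 0 µM library 1 or 3 or 100 µM library 1 or 2. The call of Adgre1 was also lost without the filter and with the replicate block. No listed marker was at 0 in every library.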

How the data were processed

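The authors deposited 1 table of FPKM values per gene for all 9 libraries, per the file headers. The aligner, counter, strand setting and filters were not given in the sources used here, so reads of overlapping, antisense or near-identical genes may be mixed. Builds named in the submitters' processing notes are GRCm38 and mm10, but the table's gene identifiers belong to the C57BL/6NJ strain assembly, and gene coordinates are the table's own. Promoter sequences are RefSeq's on GRCm38.p6. Libraries were made from total RNA with a SMARTER mRNA kit, per the labels' protocols.

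Each library's FPKM values, multiplied by length, were whole numbers of reads for 100% of values at a tolerance of 0.01 read, so reads and scaling totals could be rebuilt. The scaling total over the reads averaged 1.02, 1.02 and 0.973 at 0, 50 and 100 µM, so a library factor was already in the deposited FPKM. Values were analysed as log2(FPKM + 1), which understates changes of scarce genes, with limma 3.58.1 in R 4.3.3. The fit had 1 mean per dose over all 9 libraries and a trended variance, and p-values were adjusted by Benjamini-Hochberg over 12635 genes, with calls below 0.05. Genes needed 1 FPKM in 3 libraries. FPKM is per length, so levels of different genes can be set side by side. The procedure was tested on simulated data.

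Members and lists were chosen with earlier results of these data known, and no list was tested as a set. By the rule for named genes, values in every library are given for up to 4 members per role group with the smallest p at 100 µM and for the 5 with the smallest p at 50 µM, and up to 4 genes of each further list are named. A few genes of the pathway are not reported here. Other genes are named, or drawn with their levels, because a count or a pair includes them, and were chosen after their values were seen. Alternatives were a pseudocount of 0.1, no filter, a TPM scale, quantile normalization, the authors' factor removed, limma voom on the rebuilt reads, a fit of only the doses compared, a replicate block, and leaving out each library.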

Additional observations from a re-analysis of the deposited data

How the results depend on the processing

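No called log2 fold change of a tested member, or of the further genes named with values at 100 µM, reversed its sign under the alternatives run. Of the 33 members lower at 100 µM, 28 were called lower in all 17 alternatives, and the exceptions were Myl12b, Tmsb4x, Cap1, Smtn and Myh10. The count of lower members ranged from 30 to 35 and that of higher members from 1 to 2 when 1 library was left out, and 1 was higher on the TPM scale and 1 with the authors' factor removed. At 50 µM against 0 µM, limma voom called 1 member lower. At 100 µM against 50 µM, 25 to 31 were lower with 1 library left out, and the higher count was 0 without the filter, 2 with quantile normalization and 2 with limma voom. The count above the midpoint of 0 and 100 µM was 0 without the filter, 13 on the TPM scale, 7 with quantile normalization, 8 with the factor removed, 16 with limma voom, 0 with the replicate block and 0 to 4 with 1 library left out. The count below it was 0 without the filter, 0 with quantile normalization, 0 with the replicate block and 0 with any 1 library left out. The causes of these shifts were not tested.

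Of other assembly genes, 11 were lower on the TPM scale and 11 with the factor removed, with 4 to 8 when 1 library was left out. Over all tested genes the lower count also rose under these 2 scalings, from 1965 to 2633 and 2658. Their higher count was 0 on the TPM scale, with quantile normalization, with the factor removed, with only the 2 doses fitted and with the replicate block, 2 with limma voom, and 0 to 1 with 1 library left out. Of focal adhesion genes at 50 µM, limma voom called 1 higher and 1 lower. Gene pair ratios passed in 9 pairs with a pseudocount of 1, and in 0 to 2 with 1 library left out.

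Same-numbered libraries did not deviate together over all tested genes (correlations -0.0941 to 0.0412). No pairing by number was seen, though a weak one, or one on few genes, could be missed. With the replicate block, 31 members were lower and 2 higher at 100 µM, with Myl12b and Tmsb4x lost. Members gained as lower under at least 1 alternative were Myl12a, Cnn1, Arpc2 and Cfl1, and Gsn was gained as higher. Depth limits the scarcest genes: Rgs5 rested on 52 to 85 reads per library, and a group of 3 libraries gives limited precision for any gene.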

Other observations

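One row of the table has no symbol but carries the description thymosin beta-10, the protein of the listed symbol Tmsb10. It lies on chromosome 6, 75479124 to 75480623, on the table's strain assembly, and was found after the values were seen. It read 72.4, 90.2 and 65.6 FPKM at 0 µM, 50.0, 56.0 and 79.5 at 50 µM, and 51.1, 55.8 and 55.6 at 100 µM. The 100 µM libraries lay below all 0 µM libraries, and the 50 µM libraries spanned both.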
